A study of Mus musculus with 15 samples.

Results

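The suppressors of cytokine signalling (SOCS) are a family of 8 genes, Socs1 to Socs7 and Cish, and their transcripts were followed here in the mucosa of inflamed and drug-treated mouse colon. The members were the noncontrol array probes whose gene name in the scanner files is one of these symbols, which gave 17 of 56605 probes and 8 of 37074 gene names. Of these, 15 were well above background on at least 5 of 15 arrays, so that every one of the 8 genes could be measured, and the other 2, both of Socs6, were well above background on 0 arrays. The arrays held RNA from scraped mucosa of the last 30 mm of the descending colon of female Balb/cJ mice that were 8 weeks old when treatment began, with 1 mouse per array and 5 mice per group. The first group, DSS filgotinib, drank 4% dextran sodium sulfate (DSS), a polymer that injures the colonic epithelium, in 3 cycles of 4 days separated by 3 days of plain water, and received filgotinib, an inhibitor that prefers the kinase JAK1, daily by gavage at 30 mg/kg. The second group, DSS vehicle, drank DSS on the same schedule and received the vehicle of the drug. The third group, water, drank no DSS. One label lists a vehicle as the compound of the water mice while the design text mentions no dosing for them, and the time between the last dose and sampling is not given in the sources used here. Scraped mucosa is a mixture of cell types, and in such bulk samples fewer cells of a type and less RNA per cell cannot be told apart.

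Cytokine receptors of the type that lack a kinase of their own signal through Janus kinases (JAKs), which phosphorylate the receptor and the STAT transcription factors. Activated STATs switch on SOCS genes, and the SOCS proteins then bind the kinase or the receptor and dampen the signal, a classical negative feedback loop. SOCS3 restrains receptors that contain gp130, among them those of IL-6 and IL-11, SOCS1 restrains interferon signalling, and CISH and SOCS2 are best known as targets and inhibitors of STAT5 signalling. Each SOCS protein carries a C-terminal SOCS box, which recruits elongins B and C and a cullin, so that bound proteins can be tagged with ubiquitin. In the gut, SOCS3 of epithelial cells is known as a brake on STAT3-driven repair.

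The promoters of the members whose transcripts differed are shown because STAT binding there is the textbook route to SOCS transcription. RefSeq windows on build GRCm38.p6 were found for 4 of the 8 genes, namely Cish, Socs1, Socs3 and Socs4. Each sequence below runs 5′ to 3′ on the strand of the gene, from 250 bases before the annotated start to 30 bases counted from it, with motif matches in capitals. The windows are chr11:117969337-117969616 (minus strand) for Socs3, chr16:10785507-10785786 (minus strand) for Socs1 and chr9:107296409-107296688 (plus strand) for Cish.
Socs3: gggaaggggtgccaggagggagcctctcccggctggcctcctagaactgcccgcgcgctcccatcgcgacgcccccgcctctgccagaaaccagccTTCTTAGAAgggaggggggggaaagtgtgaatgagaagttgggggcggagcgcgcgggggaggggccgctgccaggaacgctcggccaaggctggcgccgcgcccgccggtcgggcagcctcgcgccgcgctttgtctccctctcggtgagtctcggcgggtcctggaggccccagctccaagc
Socs1: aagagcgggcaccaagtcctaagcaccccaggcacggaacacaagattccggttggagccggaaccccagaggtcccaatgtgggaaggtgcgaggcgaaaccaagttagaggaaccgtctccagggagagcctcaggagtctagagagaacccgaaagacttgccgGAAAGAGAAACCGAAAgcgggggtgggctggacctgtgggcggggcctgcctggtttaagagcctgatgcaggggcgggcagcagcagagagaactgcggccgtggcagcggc
Cish: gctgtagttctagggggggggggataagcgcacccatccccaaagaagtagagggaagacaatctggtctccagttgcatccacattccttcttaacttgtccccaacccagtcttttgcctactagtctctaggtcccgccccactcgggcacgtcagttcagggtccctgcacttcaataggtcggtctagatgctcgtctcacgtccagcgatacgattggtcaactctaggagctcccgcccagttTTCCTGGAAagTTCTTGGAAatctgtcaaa
The motifs searched on both strands were TTCNNNGAA, the core that most STAT dimers bind, the same TTC and GAA with 4 bases between them, the spacing known for STAT6, and GAAA followed after any 2 bases by GAAA, the core of the interferon-stimulated response element. Socs3 held a single STAT core, TTCTTAGAA, at positions -154 to -146, where 0 is the first base of the annotated gene. Cish held a pair of STAT cores, TTCCTGGAA from position 0 to 8 and TTCTTGGAA from position 11 to 19. Socs1 held no STAT core in its window but 2 interferon-type cores that overlap by sharing letters, GAAAGAGAAA at positions -83 to -74 and GAAACCGAAA at -77 to -68. The Socs4 window held none of the 3 motifs. Among 32817 RefSeq promoter windows of 300 bases, 8.29% held the STAT core at least once and 0.457% held 2 or more, 6.94% held the STAT6 spacing, and 3.43% held the interferon-type core and 0.222% held 2 or more. A match describes letters in these windows and shows no binding.

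**Figure D1:**
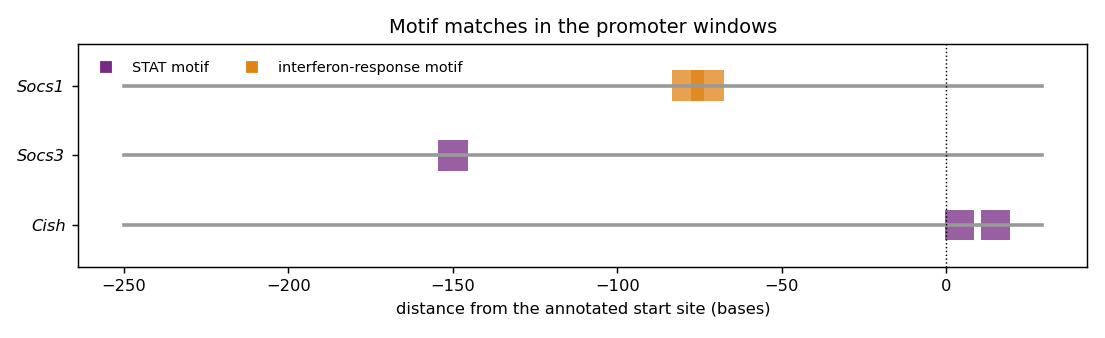
Motif matches in the promoter windows of Socs1, Socs3 and Cish, with the distance from the annotated start site in bases on the horizontal axis and 1 line per gene. Boxes mark the letters matched, with the single STAT core of Socs3 from -154 to -146, the pair of Cish at its start and the overlapping interferon-type cores of Socs1.

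The probes that represented the genes lie, on build mm9 as given in the scanner files, at chromosome 11, 117827480 to 117827539 (minus strand) for Socs3, chromosome 16, 10783951 to 10784010 (minus strand) for Socs1, chromosome 9, 107204196 to 107204255 (plus strand) for Cish, chromosome 17, 87533521 to 87533580 (plus strand) for Socs5 and chromosome 10, 94875066 to 94875125 (minus strand) for Socs2. These positions and those of the promoters are on different builds and are not to be compared. Array signal is given below as a percent of the 75th percentile of the probes on the same array, and because probes differ in brightness, values of different genes are not set against each other. The 75th percentile lay between 552 and 663 intensity units on DSS filgotinib arrays, between 570 and 666 on DSS vehicle arrays and between 684 and 813 on water arrays, and 50.2 to 58.3%, 53 to 58.6% and 58.0 to 62.1% of probes were well above background in these groups. All 8 genes were well above background on all 15 arrays.

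Socs3, the brake on IL-6-type signalling, was the SOCS gene with the widest spread between groups. It stood at 115, 305, 139, 180 and 89.3% of the 75th percentile in the 5 DSS filgotinib mice, at 472, 490, 386, 303 and 690% in the 5 DSS vehicle mice and at 71.2, 77.0, 108, 91.9 and 92.6% in the 5 water mice. All DSS vehicle mice lay above all water mice, and 4 of 5 DSS filgotinib mice lay below the lowest DSS vehicle mouse. The exception was DSS filgotinib mouse 2, whose 305% was just above the 303% of DSS vehicle mouse 4. The group means were 166 ± 84.6% with filgotinib, 468 ± 144% with DSS and vehicle and 88 ± 14.4% with water (SD, n = 5 each).

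In the limma fit across 22012 genes, Socs3 rose with DSS by 2.37 ± 0.29 on the log2 scale (SE), or 5.18-fold against water, with a 95% interval of 1.76 to 2.98 and an adjusted p of 0.000193. With filgotinib it fell to a level 2.99-fold lower than with DSS vehicle (log2 change of -1.58 ± 0.29, 95% interval of -2.19 to -0.97, adjusted p = 0.00489). Against water, DSS filgotinib mice differed by 0.79 ± 0.29 on the log2 scale, or 1.73-fold, with 4 of 5 mice above the highest water mouse, but the adjusted p was 0.0864 and the gene was not called. The interval of this last difference, not adjusted for the number of genes, ran from 0.18 to 1.41. The 3 comparisons share their groups and are not independent of each other.

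Socs1, the interferon-pathway member, was moderately higher with DSS. It stood at 67.9, 81.3, 58.3, 92.0 and 71.1% in DSS filgotinib mice, at 90.0, 72.7, 86.8, 87.0 and 89.9% in DSS vehicle mice and at 59.8, 50.4, 77.5, 59.9 and 61.1% in water mice. DSS vehicle mice other than mouse 2 lay above the highest water mouse, so that 4 of 5 did, and the filgotinib mice overlapped both other groups. Socs1 rose with DSS by 0.48 ± 0.13 on the log2 scale, or 1.39-fold against water (adjusted p = 0.0191). The difference between DSS filgotinib and DSS vehicle mice was -0.22 ± 0.13 (95% interval of -0.49 to 0.06, adjusted p = 0.287), and that between DSS filgotinib and water mice was 0.26 ± 0.13 (adjusted p = 0.194), so the filgotinib group was not separated from either.

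Cish, a STAT5 target whose product competes for the docking sites of STAT5 on receptors, was lower with the drug. It stood at 314, 278, 418, 259 and 259% in DSS filgotinib mice, at 444, 469, 388, 365 and 413% in DSS vehicle mice and at 346, 421, 318, 355 and 425% in water mice. In the filgotinib group 4 of 5 mice were below the lowest DSS vehicle mouse and also below the lowest water mouse, and mouse 3 at 418% was the exception in both respects. Cish was 1.38-fold lower with filgotinib than with DSS vehicle (log2 change of -0.46 ± 0.13, adjusted p = 0.0375), but leaving out 1 mouse ended this call in 7 of 15 fits. Against water the difference was -0.30 ± 0.13 (adjusted p = 0.144), and between DSS vehicle and water it was 0.16 ± 0.13 (95% interval of -0.12 to 0.44, adjusted p = 0.418). Over the 15 fits that left out 1 mouse, the difference from water ran from -0.42 to -0.25, with adjusted p-values from 0.0238 to 0.285. The lowest adjusted p came without DSS filgotinib mouse 3, whose array was the only one on slide 6 and on scan day 4.

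Socs5, a member implicated in dampening IL-4 and epidermal growth factor receptor signalling, showed a small shift with the drug. It stood at 87.4, 75.2, 89.4, 74.2 and 83.5% in DSS filgotinib mice, at 115, 90.2, 90.5, 110 and 99.0% in DSS vehicle mice and at 95.3, 97.0, 97.8, 93.5 and 102% in water mice. All DSS filgotinib mice lay below all mice of both other groups, although the gap to the lowest DSS vehicle mouse was under 1 percentage point. Socs5 was 1.23-fold lower with filgotinib than with DSS vehicle (log2 change of -0.30 ± 0.08, adjusted p = 0.0316), a call lost in 6 of 15 fits that left out 1 mouse. The difference from water was -0.25 ± 0.08 and was not called (adjusted p = 0.0649), and the difference between DSS vehicle and water was 0.05 ± 0.08 (adjusted p = 0.707). Spread within groups was small for this gene, with SDs of 0.12 in DSS filgotinib, 0.16 in DSS vehicle and 0.05 in water mice on the log2 scale.

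Socs2, a target of STAT5 known for restraining growth hormone signalling, was not called in any comparison through its brightest probe. It stood at 226, 276, 319, 331 and 256% in DSS filgotinib mice, at 343, 377, 273, 443 and 350% in DSS vehicle mice and at 362, 415, 303, 419 and 410% in water mice. Among the filgotinib mice, 3 of 5 were below the lowest water mouse and 2 of 5 below the lowest DSS vehicle mouse. The log2 difference of DSS filgotinib mice was -0.34 ± 0.14 against DSS vehicle (adjusted p = 0.123) and -0.44 ± 0.14 against water (adjusted p = 0.0573). Between DSS vehicle and water mice it was -0.10 ± 0.14 (adjusted p = 0.639).

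Socs4, Socs6 and Socs7, whose products are linked more to receptor tyrosine kinase and insulin signalling than to STAT feedback, differed little. Socs4 lay between 80.4 and 93.7% in DSS filgotinib mice, between 74.2 and 93.8% in DSS vehicle mice and between 77.3 and 109% in water mice. Socs6 lay between 301 and 379%, between 285 and 365% and between 263 and 321% in the same groups, and Socs7 between 388 and 493%, between 416 and 471% and between 391 and 521%. Their log2 differences ran from -0.11 ± 0.10 for Socs4 to 0.10 ± 0.09 for Socs6 between DSS vehicle and water mice, with adjusted p-values of 0.444 and 0.453. Between DSS filgotinib and DSS vehicle mice the 95% intervals were -0.15 to 0.27 for Socs4, -0.14 to 0.23 for Socs6 and -0.23 to 0.13 for Socs7. These intervals bound the differences of the probes that represent the genes at about 1.2-fold either way and do not show that the levels were equal. Another probe of Socs4, A_51_P165424, had a wider interval of -0.05 to 0.43 in this comparison.

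**Figure D2:**
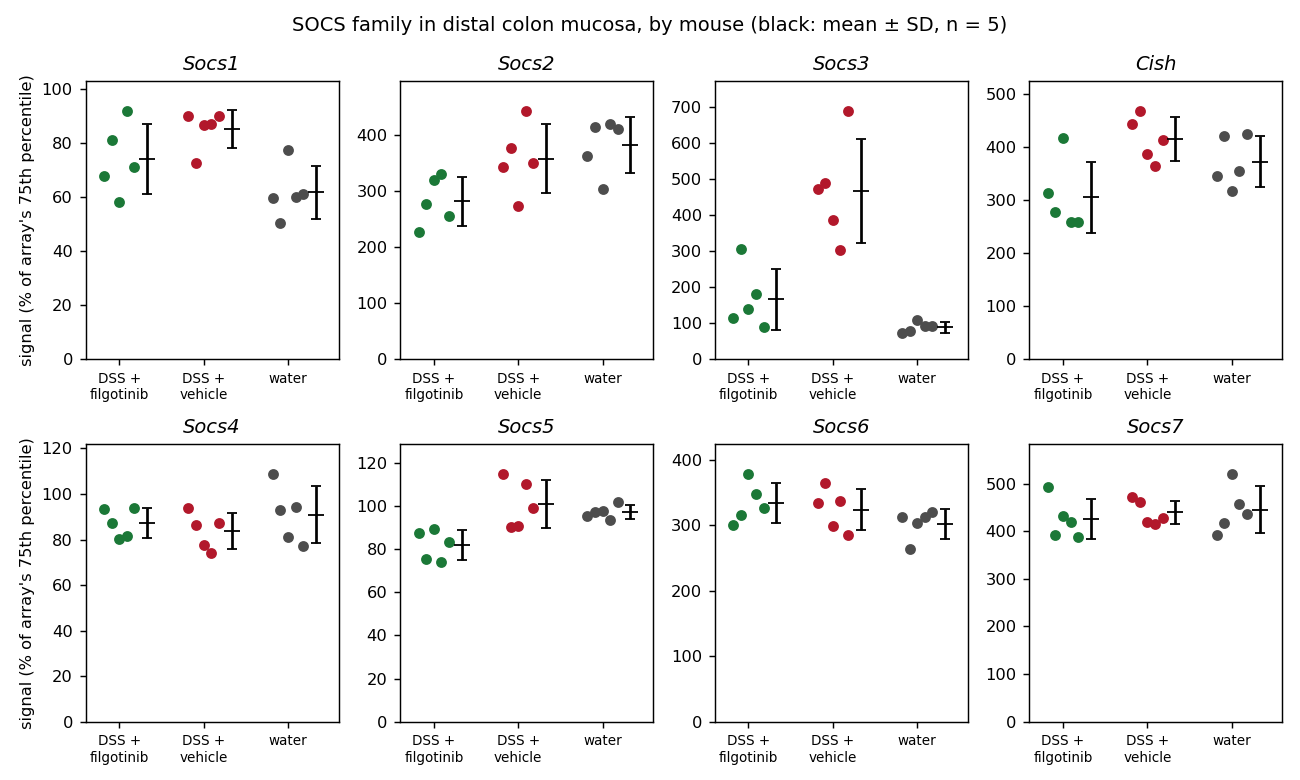
Signal of the 8 SOCS genes in each mouse as a percent of the 75th percentile of its array, with DSS filgotinib, DSS vehicle and water mice from left to right. Points are mice and black bars are the mean ± SD (n = 5). Socs3 separates DSS vehicle from water mice completely, with 303 to 690% against 71.2 to 108%.

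Counted over the family, DSS vehicle mice differed from water mice in 2 of 8 genes, both higher, against 19.2% of all genes tested called in either direction, 10.8% called higher and 8.41% called lower. Groups did not overlap for 1 of 8 genes, Socs3, against 16% of all genes. DSS filgotinib mice differed from DSS vehicle mice in 3 of 8 genes, Socs3, Cish and Socs5, all lower, against 11.3% of all genes called in either direction, 6.79% called higher and 4.53% called lower. Groups did not overlap for 1 of 8, Socs5, against 7.99%. DSS filgotinib mice differed from water mice in 0 of 8 genes by limma, against 9.83% of all genes called, 6.42% higher and 3.41% lower. At an unadjusted p under 0.05 it was 4 of 8 genes, against 28.7% of all genes. The same count was 2 of 8 for DSS vehicle against water, against 34.1%, and 4 of 8 for DSS filgotinib against DSS vehicle, against 28.4%. Groups did not overlap between DSS filgotinib and water for 1 of 8 genes, Socs5, against 9.57%. The median log2 difference of the 8 genes was 0.07 for DSS vehicle against water, -0.26 for DSS filgotinib against DSS vehicle and -0.06 for DSS filgotinib against water, beside 0.05, 0 and 0.05 over all genes. With 8 members a count of 2 or 3 is a description of the family and no test of it.

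**Figure D3:**
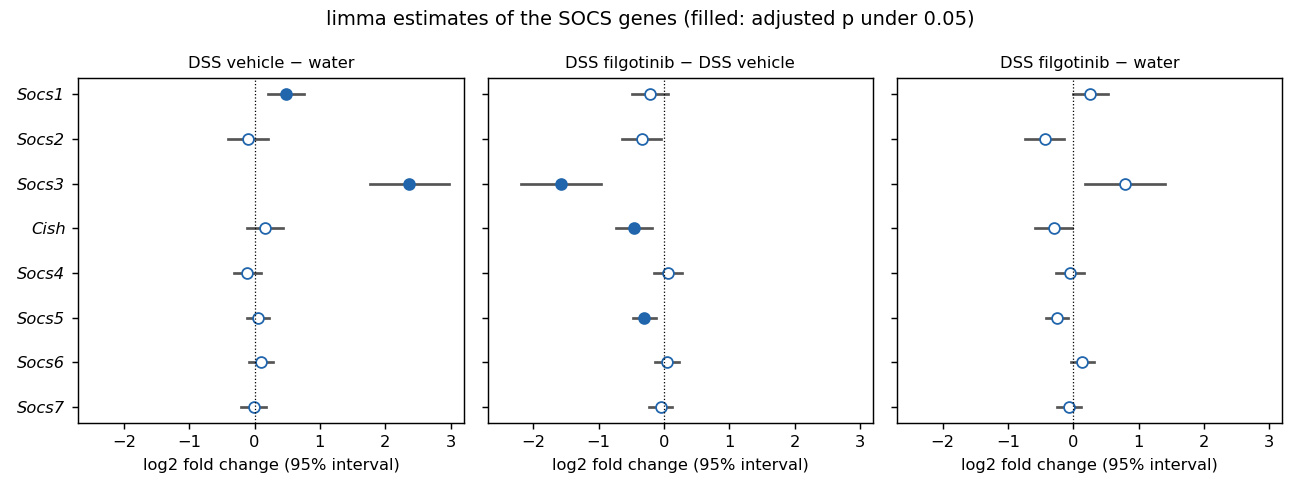
Log2 fold change with its 95% interval for each SOCS gene in the 3 comparisons, with filled points at an adjusted p under 0.05. Socs3 and Socs1 are filled for DSS vehicle against water, Socs3, Cish and Socs5 for DSS filgotinib against DSS vehicle, and no gene for DSS filgotinib against water.

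Only Socs2, Socs4 and Socs6 had more than 1 probe above background, so the calls of Socs1, Socs3, Socs5 and Cish each rest on a single probe. The 4 probes of Socs2 were all lower in DSS filgotinib than in water mice, by -0.44, -0.47, -0.50 and -1.12 on the log2 scale. A second probe, A_55_P1992838, at chromosome 10, 94875468 to 94875527 (minus strand, mm9), passed the test when every probe was tested, with a log2 difference of -0.50 ± 0.13 and an adjusted p of 0.0361, where 8.61% of all 33466 probes were called. In the other 2 comparisons, where 17.5% (DSS vehicle against water) and 9.85% (DSS filgotinib against DSS vehicle) of all probes were called, the SOCS probes called were those that represent Socs3 and Socs1, and Socs3, Cish and Socs5. In the order given above, the Socs2 probes were at -0.10, -0.38, -0.30 and -0.72 in DSS vehicle against water mice. Between DSS filgotinib and DSS vehicle mice they were at -0.34, -0.09, -0.20 and -0.40. The lower signal against water was therefore in part already present in DSS vehicle mice, although not called. The Socs2 probe with the largest difference between DSS filgotinib and water mice, -1.12, was A_55_P2072586 (adjusted p = 0.0611). It was the dimmest of the 4, with group means of 7.96 to 15.3% of the 75th percentile, and was well above background on 12 of 15 arrays. The 3 probes of Socs4 disagreed in sign between DSS vehicle and water mice, with -0.25, -0.11 and 0.12, none of them called. The 3 probes of Socs6 were at 0.07, 0.10 and 0.26 in that comparison, none called.

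**Figure D4:**
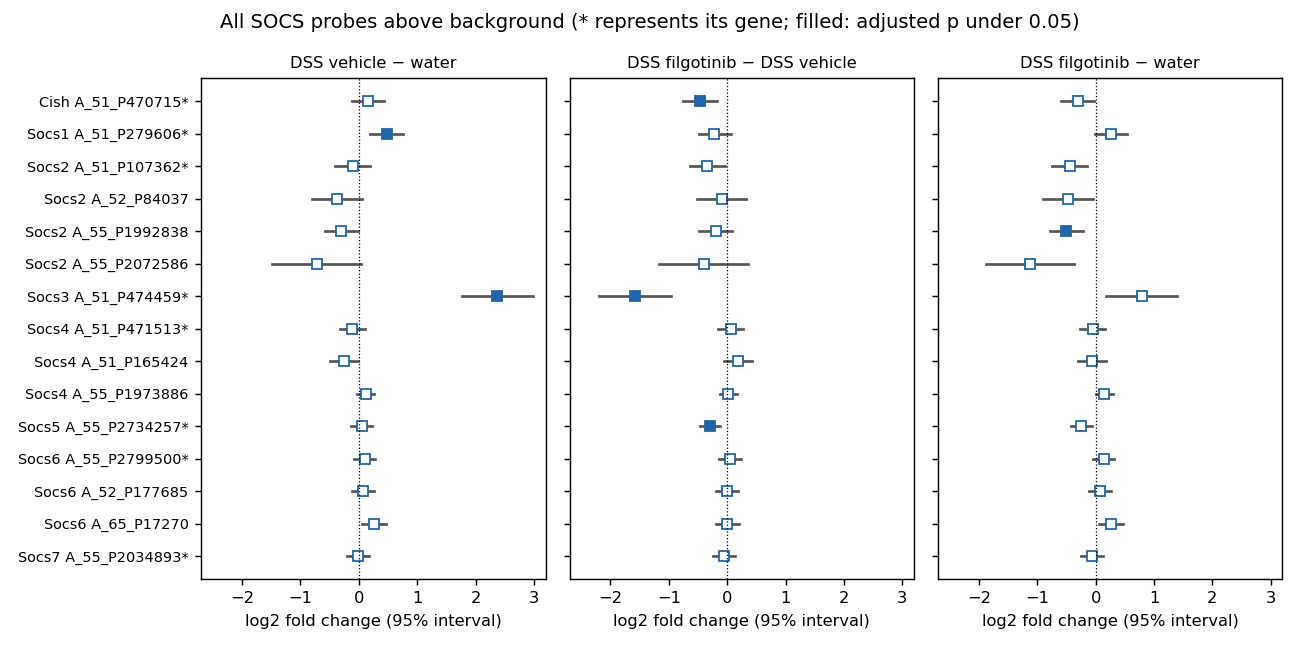
Log2 fold change with its 95% interval for the 15 SOCS probes above background in the 3 comparisons, with a star at the probe that represents its gene and filled squares at an adjusted p under 0.05 over all probes. The 4 Socs2 probes lie to the left of 0 in the comparison of DSS filgotinib with water, and 1 of them, A_55_P1992838, is filled.

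Scan dates and slides in the file headers were not spread evenly over the groups. Slide 4 held DSS vehicle mouse 2 with water mice 3 and 5, slide 2 held DSS filgotinib mice 1 and 2 with DSS vehicle mice 1, 4 and 5, and each of the other 4 slides held a single group. Within slide 4, Socs3 was 2.30 higher on the log2 scale in the DSS vehicle mouse than in the water mice, close to the value over all mice, whereas Socs1 was only 0.08 higher. Within slide 2, the differences between DSS filgotinib and DSS vehicle mice were -1.30 for Socs3, -0.46 for Cish and -0.41 for Socs5. On the first scan day, which held 4 DSS filgotinib, 3 DSS vehicle and 3 water mice, Socs3 differed by 2.54 and Socs1 by 0.65 between DSS vehicle and water mice. On the same day Socs3 differed by -1.58, Cish by -0.55 and Socs5 by -0.43 between DSS filgotinib and DSS vehicle mice. With slide as a fixed block 0 of the 5 calls remained, with adjusted p-values of 0.166 and 0.9 for Socs3 and Socs1 with DSS and 0.132, 0.106 and 0.0676 for Socs3, Cish and Socs5 with filgotinib. That fit leaves 7 residual degrees of freedom in place of 12 and compares groups only within slides 2 and 4.

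**Figure D5:**
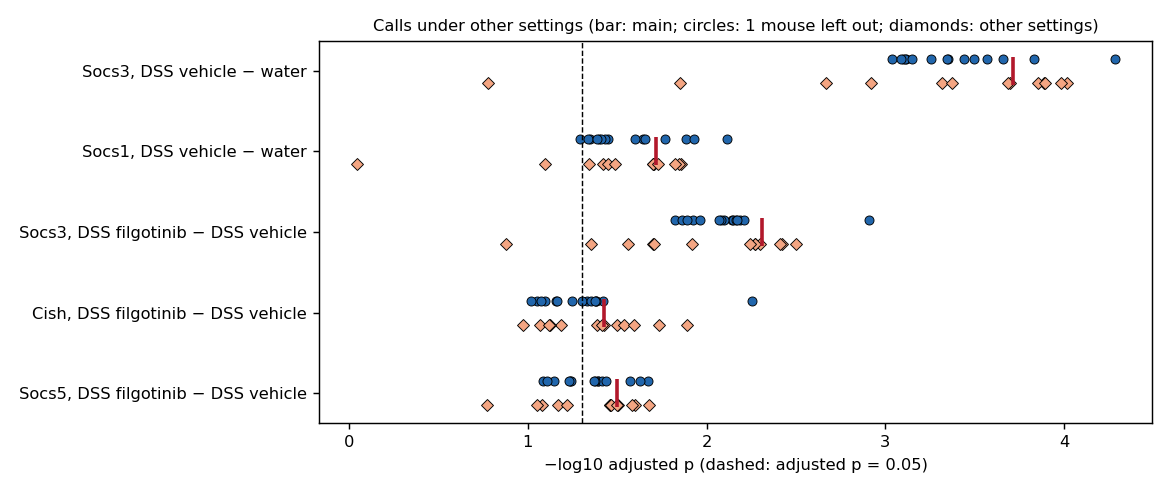
Size of -log10 of the adjusted p for the 5 calls under every setting that gives a test, with a red bar for the value reported, circles for fits that leave out 1 mouse and diamonds for other settings. Both Socs3 calls stay right of the dashed line at 0.05 except with slide as a block, and the calls of Cish and Socs5 cross it in many settings.

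The 2 Socs3 calls held in all 15 fits that left out 1 mouse, with adjusted p-values of up to 0.000919 for DSS and up to 0.015 for filgotinib. The Socs1 call was lost without water mouse 2 (adjusted p = 0.051) and with arrays brought to 1 common median (adjusted p = 0.0806). Over such fits the adjusted p of Cish reached 0.0958 and that of Socs5 reached 0.0823. Scaling to a common median left Socs5 at -0.22 (adjusted p = 0.168) and Cish at -0.39 (adjusted p = 0.065).

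The members did not vary together as a block. Over the 15 arrays, Pearson's r between Socs1 and Socs3 was 0.76 and that between Socs5 and Cish was 0.69, while r between Socs3 and Cish was 0.33 and between Socs3 and Socs2 -0.01. After the group means were subtracted, Socs1 and Cish ran in opposite directions among mice of the same group, with r of -0.76, and Socs1 and Socs3 had r of 0.43. These values are descriptions over 15 arrays that share slides and the group structure.

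Genes of like pattern were searched only among those with an established name, leaving out predicted-gene, clone and accession-type names. The r values below are the highest picked among 16211 named genes over 15 arrays. How high the best r would be by picking alone was not tested. Over the 15 arrays the most like Socs3 was Cxcl5, a neutrophil-attracting chemokine, with r of 0.954. Next came Ltbp2, a binding partner of extracellular matrix fibres, with 0.935 and Cyfip2 with 0.933. Cck, an enteroendocrine hormone, followed with 0.919 and Il1rl1, the IL-33 receptor, with 0.913. After subtraction of group means the nearest was Mtnr1a with 0.818, and Cyfip2 was still among the first 5 with 0.784. For Socs1 the nearest were Gsap with 0.920, Il4ra, the IL-4 and IL-13 receptor chain, with 0.909, and Arid5a, an RNA-binding protein, with 0.897, and all 3 stayed in the first 5 after subtraction of group means, with 0.837, 0.826 and 0.853. For Cish the nearest was Ear10, an eosinophil-associated ribonuclease, with 0.913, and it stayed the nearest after subtraction of group means with 0.923. Next to it came Trim14 with 0.911 and Ifnlr1, the interferon lambda receptor, with 0.910. For Socs5 the nearest was Phldb3 with 0.868 over all values and Trim46 with 0.851 after subtraction of group means.

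The list counts that follow stand beside 10.8% of all genes that rose and 8.41% that fell with DSS, and 6.79% that were higher and 4.53% lower with filgotinib than with DSS vehicle, with medians over all genes of 0.05 and 0. Upstream of the SOCS genes, among 14 Janus kinases, phosphatases and PIAS genes, 1 rose and 0 fell with DSS against water. That gene was Jak3, the kinase of the common gamma chain of lymphoid cytokine receptors, which rose by 0.60 ± 0.11 (adjusted p = 0.00301), and with filgotinib it was lower than with DSS vehicle by -0.48 ± 0.11 (adjusted p = 0.0152). Jak1, the preferred target of the drug, was at 0.09 ± 0.07 for DSS filgotinib against DSS vehicle (adjusted p = 0.417) and at 0.10 ± 0.07 for DSS vehicle against water (adjusted p = 0.322). In DSS filgotinib against water mice 2 of the 14 were higher and 0 lower, against 6.42% of all genes called higher. These were Pias2 by 0.35 ± 0.08 and Ptpn2, a phosphatase of JAKs and STATs, by 0.31 ± 0.08 (adjusted p = 0.0192 and 0.0278). Calls in this comparison depended on scaling, with 1414 of all genes higher here and 254 with arrays brought to a common median. Of 6 STAT genes measured, 2 rose and 0 fell with DSS, and Stat3 was among those that rose, by 0.53 ± 0.09 (adjusted p = 0.00139). With filgotinib Stat3 was lower than with DSS vehicle by -0.29 ± 0.09 (adjusted p = 0.0467). Stat5a and Stat5b were at -0.08 ± 0.09 and -0.06 ± 0.10 in the comparison of DSS filgotinib with DSS vehicle (adjusted p = 0.591 and 0.703).

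Only 8 of 31 cytokines that signal through JAKs were well above background on enough arrays to be tested. Il11, a ligand of gp130 receptors, was the most changed, with 2.83 ± 0.52 in DSS vehicle against water mice (7.11-fold, adjusted p = 0.00277) and -2.35 ± 0.52 in DSS filgotinib against DSS vehicle mice (adjusted p = 0.0128), where 4 of 5 filgotinib arrays were well above background. Il7 followed with 0.92 ± 0.14 and -0.53 ± 0.14 in the same comparisons (adjusted p = 0.000844 and 0.0252). Ctf1 and Il15 fell with DSS, by 0.48 and 0.55 on the log2 scale. Il6, Il22, Lif, Osm and Ifng were among the 23 cytokines that did not pass the filter and were not tested.

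Of 34 receptor genes tested, 12 rose and 1 fell with DSS against water, with a list median of 0.26 beside 0.05 over all genes. The largest rises were those of Osmr, the oncostatin M receptor, at 2.05 ± 0.60 (adjusted p = 0.0292, well above background on 4 of 5 water arrays), Csf2rb at 1.46 ± 0.42, Il7r at 1.41 ± 0.41 and Il4ra at 1.22 ± 0.18. Lifr, the receptor of leukaemia inhibitory factor, was lower by -1.54 ± 0.25 (adjusted p = 0.00124). Il6st, which encodes gp130 itself, was at 0.38 ± 0.27 and was not called (adjusted p = 0.331). With filgotinib against DSS vehicle 1 receptor was higher, Lifr at 0.90 ± 0.25 (adjusted p = 0.0323), and 1 lower, Ifnlr1 at -0.69 ± 0.18 (adjusted p = 0.0239).

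Downstream, 10 of 24 genes of the STAT3-induced list rose and 2 fell with DSS against water, with a median of 0.47. Saa3, an acute-phase protein, rose by 3.96 ± 0.54 (adjusted p = 0.000422), Steap4, a metalloreductase, by 2.96 ± 0.42 (adjusted p = 0.000561), and Lrg1 by 2.45 ± 0.58 (adjusted p = 0.0105). The 2 lower genes were Birc5, which encodes survivin of dividing cells, and the mucin gene Muc1. With filgotinib 4 of the 24 were lower than with DSS vehicle and 1 higher, the lower ones being Saa3 at -3.41 ± 0.54, Steap4 at -2.35 ± 0.42, Ccnd1 at -1.10 ± 0.18 and Pim1 at -0.58 ± 0.14, and the higher one Birc5 at 1.13 ± 0.27. Ccnd1 and Pim1 had not been called with DSS, at 0.08 ± 0.18 and 0.38 ± 0.14 (adjusted p = 0.798 and 0.0647). In DSS filgotinib against water mice 1 of the 24 was higher and 3 lower, among them Ccnd1 at -1.02 ± 0.18 (adjusted p = 0.00956). Of all genes, 6.42% were higher and 3.41% lower there.

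Of 23 genes of the interferon-induced list, 13 were higher and 0 lower with DSS, with a median of 0.60 beside 0.05 over all genes. With filgotinib 5 of the 23 were lower than with DSS vehicle, with a median of -0.53 beside 0 over all genes. Ido1, a tryptophan-degrading enzyme, rose 10.7-fold (log2 change of 3.42 ± 0.67, adjusted p = 0.00368), followed by Ifi47 and Nlrc5, both at 1.82. The largest differences called with filgotinib were those of Ciita, the master regulator of MHC class II genes, at -1.27 ± 0.37 and Gbp3, an interferon-induced GTPase, at -1.25 ± 0.30. Ido1 was still higher in DSS filgotinib than in water mice, by 3.09 ± 0.67 (adjusted p = 0.0168). Among 14 genes of growth hormone, prolactin and STAT5 signalling, 0 were higher and 2 lower with DSS, Ghr at -0.55 ± 0.18 and Bcl2 at -0.47 ± 0.14. With filgotinib 1 was lower, Pim1, a kinase gene that the STAT3 list also holds.

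Markers of other cell types in the mucosa were read beside these values. Signals of each marker list were also summed, but in such a sum the brightest probe weighs most. Of 5 neutrophil markers 4 were measured and 2 rose with DSS, S100a9, a calgranulin of neutrophils, by 3.85 ± 0.82 (adjusted p = 0.00608) and Ly6g by 0.60 ± 0.19 (adjusted p = 0.0393). With filgotinib 1 of the 4 was lower than with DSS vehicle, S100a9 at -3.12 ± 0.82 (adjusted p = 0.028), which was well above background on 2 of 5 DSS filgotinib, 5 of 5 DSS vehicle and 3 of 5 water arrays. The neutrophil sum ran from 17200 to 18400% of the 75th percentile in DSS filgotinib, from 19400 to 21200% in DSS vehicle and from 16000 to 18600% in water mice. Csf3r made up 80.4 to 91.8% of it and was itself not called, so the sum says little about S100a9. The Cxcr2 probe was well above background on 0 arrays and was not tested.

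All 5 macrophage and monocyte markers were measured and 0 were called, although their median log2 difference was 0.74 with DSS and -0.42 with filgotinib. Their sums were 1450 to 3790% in DSS filgotinib, 2410 to 5830% in DSS vehicle and 1400 to 2700% in water mice. Of 3 mast cell markers measured, 2 rose with DSS and 2 were lower with filgotinib than with DSS vehicle. Mcpt1, a mast cell protease, was at 4.52 ± 0.37 and -2.04 ± 0.37 in these comparisons (adjusted p = 1.08e-05 and 0.005), and Mcpt2 was called in the same directions but was well above background on 0 of 5 DSS filgotinib and 0 of 5 water arrays. Kit, the stem cell factor receptor, was at -0.10 ± 0.12 and 0.29 ± 0.12 and was not called. It made up 63 to 98.6% of the mast cell sum, whose median was 326% in DSS filgotinib, 326% in DSS vehicle and 254% in water mice.

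Of 3 B and plasma cell markers measured, 2 rose with DSS, among them Ms4a1 by 2.09 ± 0.64 (adjusted p = 0.0355, well above background on 4 of 5 water arrays). Jchain, of plasma cells, was at -1.18 ± 1.02 and was not called, and the median of the list's sum was 310% in DSS filgotinib, 131% in DSS vehicle and 145% in water mice. Il2rb was the 1 of 4 T and NK cell markers that rose with DSS, by 1.03 ± 0.26 (adjusted p = 0.0134). Of 6 muscle and fibroblast markers 0 were called, but their median log2 difference was 1.55 with DSS and -0.85 with filgotinib. The fibroblast genes Pdgfra, Col1a1 and Col3a1 had the same signs as Socs3 with wide errors, at 1.92 ± 0.96, 1.72 ± 0.75 and 1.38 ± 0.84 with DSS. With filgotinib against DSS vehicle they were at -1.99 ± 0.96, -1.74 ± 0.75 and -1.44 ± 0.84. The muscle markers Des, Myh11 and Acta2 were at 2.12 ± 1, 1.36 ± 1.16 and 0.20 ± 0.11 with DSS. They differed less with filgotinib against DSS vehicle, at -0.16 ± 1, -0.26 ± 1.16 and -0.16 ± 0.11. Des was well above background on 3 of 5 DSS filgotinib, 3 of 5 DSS vehicle and 1 of 5 water arrays. These values do not show that the stromal share was unchanged. The sum of the list was 1720 to 3510% in DSS filgotinib, 2590 to 3930% in DSS vehicle and 1690 to 2670% in water mice. Of 3 endothelial markers 0 were called. The 6 epithelial markers were well above background on every array. With DSS 3 of them rose and 0 fell, Krt8 by 0.31 ± 0.07, Krt20 by 0.30 ± 0.10 and Vil1 by 0.25 ± 0.08. Of 4 goblet cell markers 2 rose, Spink4 by 0.67 ± 0.13 and Muc2 by 0.34 ± 0.09. Car1, at 0.52 ± 0.15, was the 1 of 4 colonocyte markers that rose. With filgotinib against DSS vehicle 0 markers of these lists were called. Against water, Cdx1 was higher with filgotinib by 0.33 ± 0.08. The part of these cell types in the SOCS differences was not tested.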

How the data were processed

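Per the file headers, the deposited scanner files hold 1-colour intensity per spot after background subtraction and detrending by Agilent Feature Extraction 11.5.1.1, and the authors' deposited table holds log2 values of 32349 probes; how arrays were set against each other there is not given in the sources used here. Per the submitters' processing notes, limma was also used. Here, signals were log2-transformed and each array's 75th percentile subtracted. Control spots and 101 probes with no unmarked spot on an array were left out, which kept 56504, and no spot was saturated. Probes well above background on fewer than 5 of 15 arrays were dropped, the brightest remaining probe represented a gene, and 22012 genes were compared in 1 fit over all arrays with limma 3.58.1 in R 4.3.3 (lmFit and eBayes, two-sided, Benjamini-Hochberg over all genes), tested on simulated data; a call is an adjusted p under 0.05. Names came from file symbols and accessions of the RefSeq table of GRCm38.p6. Nothing says the mice are other than separate animals, and 5 per group limits precision.

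The members and gene lists were chosen with earlier results of these data known, and a wrong symbol and 2 duplicate aliases in the lists were corrected after the files were read. Named were the 8 SOCS genes, up to 4 called genes per list by size, listed JAKs, STATs, cytokines and receptors, and for each called SOCS gene its most correlated genes; a few results under this rule are not reported here. Replicate numbers were not used to pair mice in the main fit. Correlations of same-numbered deviations from group means ran from -0.52 to 0.53 and, resting on single arrays, cannot settle whether the numbers pair mice. Other scalings, filters, probes, blocks and left-out mice were tried.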

Additional observations from a re-analysis of the deposited data

Results flagged for a closer look

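In 2 of 24 groups of 5 mice, 8 genes in 3 groups each, the gap of an end value to its neighbour exceeded Dixon's critical value, where chance gives about 1 in 20. Socs1 in DSS vehicle mouse 2 was low, at -0.46 on the log2 scale or 72.7% of the 75th percentile, against 86.8 to 90.0% in the other 4 DSS vehicle mice. This mouse is the only DSS vehicle mouse on slide 4. Socs6 in water mouse 2 was low, at 1.39 on the log2 scale or 263%, against 304 to 321% in the other 4 water mice.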

How the results depend on the processing

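DSS vehicle against water gave 2 SOCS calls, 1 with common-median scaling, 0 with slide as a block and 1 to 2 with 1 mouse left out, 1 only without water mouse 2. All genes gave 4220 calls, but 2522 with common-median scaling, 84 with slide as a block, 1619 on the first scan day alone (chosen after seeing the data) and 2829 to 4645 with 1 mouse left out.

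DSS filgotinib against DSS vehicle gave 3 SOCS calls, 1 with common-median scaling, with no filter on dim probes, with only the 2 groups in the fit and with a replicate block, 0 with slide as a block, and 1 to 4 with 1 mouse left out. The count was 1 without DSS filgotinib mouse 2, 4 or 5 or DSS vehicle mouse 1 or 5. All genes gave 2492 calls, but 1229 with no filter, 1276 with the 2 groups only, 1608 with the replicate block, 437 with slide as a block and 1315 to 3060 with 1 mouse left out; the lowest counts were 1315, 1573, 1504 and 1399, without DSS vehicle mouse 1 or 5 or DSS filgotinib mouse 2 or 5.

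DSS filgotinib against water gave 0 SOCS calls, 1 with normexp and quantile normalization, no filter, a filter on all 15 arrays, the mean of a gene's probes or scan day as a block, and 0 to 3 with 1 mouse left out, 3 without DSS filgotinib mouse 3 and 1 without water mouse 3 or DSS vehicle mouse 3. All genes gave 2164 calls, but 521 with common-median scaling, 1197 with quantile, 1389 with normexp and quantile normalization, 1247 in the authors' deposited log2 table, 9053 with no filter, 1416 with probe means, 1396 with slide as a random block, 2 with slide as a block, 788 with the replicate block, 696 on the first scan day, 1079 with the 2 groups only and 745 to 2886 with 1 mouse left out. The counts were 971, 870, 788, 1198 and 745 without water mouse 2, 4 or 5 or DSS filgotinib mouse 4 or 5.

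The replicate block left both Socs3 calls and that of Socs1 in place (adjusted p = 0.00216, 0.0198 and 0.0456) and ended those of Cish and Socs5 (0.0754 and 0.0606). The share of calls that were higher moved with scaling. It was 56.1% with DSS, and 37.9% with common-median scaling. For filgotinib against DSS vehicle it was 60%, and 73.6% with common-median scaling. For DSS filgotinib against water it was 65.3%, and 48.8%, 48.9%, 48.9% and 48.1% with common-median scaling, quantile, normexp with quantile and the deposited table.

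Sign changes occurred only for differences that were not called, in these settings. With slide as a block, DSS vehicle against water became 0.10 for Socs2, 0.13 for Socs4 and -0.15 for Socs5, DSS filgotinib against DSS vehicle became -0.04 for Socs6 and 0.01 for Socs7, and DSS filgotinib against water became -0.18 for Socs1 and 0.22 for Socs4. For DSS vehicle against water, Socs7 became 0.01 with normexp and quantile normalization, 0.02 with scan day as a block, 0.05 on the first scan day, and 0 to 0.04 without water mouse 3 or DSS vehicle mouse 3 or 4, in a range of -0.06 to 0.04 with 1 mouse left out. Socs4 became 0.12 there with probe A_55_P1973886, and Socs5 lay at 0 without DSS vehicle mouse 1, in a range of 0 to 0.09. For DSS filgotinib against DSS vehicle, Socs7 became 0.03 with common-median scaling and Socs6 lay at 0 without DSS vehicle mouse 5 or DSS filgotinib mouse 3, in a range of 0 to 0.09. For DSS filgotinib against water, Socs4 became 0.01 with probe means, 0.14 with probe A_55_P1973886 and 0.02 without water mouse 1, in a range of -0.11 to 0.02. The cause was not tested for these changes. The arrays limit precision by their number, and all 8 gene probes were well above background throughout.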

Other observations

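The list of elongins, cullins and proteins that act with them at the SOCS box held Eloc, Elob, Cul2, Cul5, Rnf7, Rbx1, Arih2 and Ube2f. Of these 8 genes, 0 were called in DSS vehicle against water mice or in DSS filgotinib against DSS vehicle mice. There 19.2% and 11.3% of all genes were called, so that a count of 0 of 8 is near the background. In DSS filgotinib against water mice 2 of the 8 were higher and 0 lower, against 6.42% of all genes called higher and 3.41% lower. Eloc and Elob, the elongins that the box binds, were slightly higher there, by 0.26 ± 0.07 and 0.20 ± 0.06 (SE) on the log2 scale (adjusted p = 0.0364 and 0.0476, limma). Over all genes, calls higher in this comparison went from 1414 to 254 with common-median scaling. Among 20 other SOCS-box genes tested, 0 were higher and 2 lower with DSS, Spsb4 at -0.75 ± 0.24 and Asb16 at -0.68 ± 0.20. Of all genes, 10.8% were called higher and 8.41% lower with DSS, so that 2 of 20 lower is near the background. Spsb4 was also lower in DSS filgotinib than in water mice, by -1.04 ± 0.24 (adjusted p = 0.0205), and Spsb3 was higher with filgotinib than with DSS vehicle, by 0.28 ± 0.07 (adjusted p = 0.0264). Each was the 1 of the 20 called in its comparison, where 9.83% and 11.3% of all genes were called.

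Of 20 genes for receptors and adaptors that SOCS proteins are known to bind, 4 rose and 3 fell with DSS against water. Of all genes, 10.8% rose and 8.41% fell. Irs2 and Irs1, the insulin receptor substrates that SOCS1 and SOCS3 can mark for degradation, were 0.96 ± 0.18 and 0.86 ± 0.14 higher (adjusted p = 0.00252 and 0.00137), and Vav1, a guanine nucleotide exchange factor of blood cells, was 0.64 lower, at -0.64 ± 0.14 (adjusted p = 0.00569). Between DSS filgotinib and DSS vehicle mice 2 of the 20 were higher and 2 lower, against 6.79% and 4.53% of all genes. With filgotinib Irs1 was lower than with DSS vehicle, by -0.61 ± 0.14 (adjusted p = 0.0149), and Vav1 was higher, by 0.48 ± 0.14 (adjusted p = 0.0366). Tirap, a Toll-like receptor adaptor that SOCS1 binds, was at -0.38 ± 0.09 (adjusted p = 0.018) in the same comparison.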
